A study of Homo sapiens with 36 samples.

Results

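The NOTCH pathway was measured in 36 human lymphoma cell lines by targeted RNA-Seq, an assay that counts reads only for a fixed panel of genes. The genes described were chosen by symbol: the receptors NOTCH1, NOTCH2, NOTCH3 and NOTCH4, the ligands DLL1, DLL4, JAG1 and JAG2, and the target genes HES1 and HEY1. Of these 10 genes, 9 are described, out of 2549 genes counted, and NOTCH3 was not analysed here. Cells were lysed directly, without RNA purification, and each line gave 1 library, so no line has a replicate of its own.

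NOTCH receptors sit on the cell surface and are activated by ligands of the Delta-like (DLL) and Jagged (JAG) families on neighbouring cells. Ligand binding lets proteases free the intracellular part of the receptor, which enters the nucleus, joins the DNA-binding protein RBPJ and turns on target genes such as HES1 and HEY1. In B cells, NOTCH2 is known for its role in forming marginal zone B cells, and truncating changes of NOTCH1 or NOTCH2 that prolong signalling recur in mature B-cell lymphomas.

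Lymphoma types are not in the labels, which give line names, and were assigned from the documented origin of each named line. There were 9 lines of mantle cell lymphoma (MCL), 5 of diffuse large B-cell lymphoma of the activated B-cell type (ABC), 5 of marginal zone lymphoma or hairy cell leukaemia (MZL/HCL) and 14 of diffuse large B-cell lymphoma of the germinal centre type (GCB). MEC1, of chronic lymphocytic leukaemia (CLL), and FARAGE and RCK8, large B-cell lines of unsettled cell of origin, were described but entered no test between types. The origin of HAIR_M, HC_1, JVM2 and RIVA is also less certain than that of the other lines, and they were kept in the types given. All are immortalised cultures and no treatment is given in the labels. Each line was taken to stand for 1 patient's tumour, which the labels do not state. REC1 and MINO are MCL lines known for NOTCH1 changes, and were also compared with the other 7 MCL lines.

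Libraries held from 6422917 to 13451527 gene counts. Levels are in CPM, counts brought to a common library total and scaled by edgeR's TMM factors, which correct for differences in library composition and ran from 0.602 to 1.87. They serve to compare 1 gene between lines, not genes with each other, since the length of the counted targets is not given. A count of 0 was read as allowing 3 counts, which came to between 0.137 and 0.474 CPM by library and covers counting error alone. Control probes were highest in MEC1, at 424 counts (19.3 CPM), while the median library reached 10 counts. The lowest gene of MEC1 had 174 counts, so low levels in MEC1 are to be read against a raised floor. The libraries most alike were SP49 and SP53, with a Pearson r of 0.951 for log2 CPM over the genes tested. The median library had an r of 0.882 to the library most like it. SP49 and SP53 were kept as separate MCL lines.

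The types were checked against genes that mark them. CCND1, the cyclin placed under an immunoglobulin enhancer by the translocation of MCL, was at 100 CPM or more in 4 of the 9 MCL lines, with 24021 CPM in MAVER1, and below it in the other 5. Outside MCL it also reached 100 CPM in VL51 (270 CPM) and HAIR_M (106 CPM), of the MZL/HCL type, and in FARAGE (268 CPM). The 5 MCL lines below 100 CPM were REC1 at 91.2 CPM, SP49 at 27.4, UPN1 at 13.0, JEKO1 at 8.77 and SP53 at 7.90. The libraries labelled with these names thus had a lower level of this marker of MCL than the other 4. Whether the assay missed CCND1 transcripts in them, or the labels are wrong, was not tested. MME, the germinal centre surface peptidase CD10, ran from 22.4 to 338 CPM in ABC lines and from 326 to 5962 CPM in GCB lines. The MZL/HCL lines SSK41 (1763 CPM) and KARPAS1718 (599 CPM) lay within that GCB range. The MCL lines JEKO1 (471 CPM) and UPN1 (412 CPM), both low in CCND1, and the ABC line U2932 (338 CPM) lay within it too. IRF4, a transcription factor of activated B cells, ran from 523 to 904 CPM in ABC lines and from 1.10 to 1746 CPM in GCB lines, with DOHH2 highest. ANXA1, a marker of hairy cell leukaemia, did not set the hairy cell lines apart: it was at 989 CPM in HC_1 and 10.3 CPM in HAIR_M, but at 6068 CPM in SUDHL16, a GCB line, and 212 CPM in JVM2. Tests that involve MCL were repeated with the 4 MCL lines at 100 CPM or more of CCND1, an alternative chosen after seeing the data. Below, the 4 MCL lines that had CCND1 means these lines at 100 CPM or more. Of the B-cell markers, 6 of 7 were measured, and their summed level ran from 4554 CPM in MEC1 to 81185 CPM in KARPAS1718.

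The promoters of HES1 and JAG1 are shown because HES1 is the best known NOTCH target and JAG1 had the lowest p of the 9 genes for a difference between types. Both are 300 bases from RefSeq on GRCh38.p14, from 250 bases before to 50 bases after the start of the gene, read 5′ to 3′ on the gene's own strand. The HES1 promoter is chr3:194135898-194136197 on the plus strand, and the JAG1 promoter is chr20:10673950-10674249 on the minus strand. Capitals mark TGGGAA, the core of the RBPJ site, searched on both strands.
HES1: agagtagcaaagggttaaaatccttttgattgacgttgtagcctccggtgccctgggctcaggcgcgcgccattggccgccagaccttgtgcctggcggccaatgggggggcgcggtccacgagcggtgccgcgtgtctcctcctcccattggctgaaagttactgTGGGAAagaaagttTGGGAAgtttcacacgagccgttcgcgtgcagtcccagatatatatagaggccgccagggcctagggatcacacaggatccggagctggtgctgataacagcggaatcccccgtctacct
JAG1: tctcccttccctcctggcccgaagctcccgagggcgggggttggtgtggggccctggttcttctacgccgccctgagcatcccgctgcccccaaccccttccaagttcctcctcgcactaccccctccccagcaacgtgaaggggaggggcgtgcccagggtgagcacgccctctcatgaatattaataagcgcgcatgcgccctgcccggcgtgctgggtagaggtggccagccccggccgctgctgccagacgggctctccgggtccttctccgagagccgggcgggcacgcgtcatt
The HES1 promoter held TGGGAA at 2 places, from base -84 to -79 and from base -70 to -65 relative to the start. The first lay within the longer form GTGGGAA, from base -85 to -79. The promoters of NOTCH1, NOTCH2, NOTCH4, DLL4, JAG1 and JAG2 had no TGGGAA on either strand. Among 35114 promoters of this length, 24.03% held TGGGAA, 3.796% held it at 2 or more places, and 6.245% held GTGGGAA. These matches describe letters and do not show binding.

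NOTCH1, at chromosome 9, 136494433 to 136545786 on the minus strand of hg38, ranged widely over the lines. RCK8 had 655 CPM (95% Poisson interval 640 to 669), HAIR_M 552 CPM and VL51 282 CPM, above the median of 63.4 CPM. The lowest lines were OCILY8 with 3.64 CPM (2.30 to 5.46, from 23 counts), DB with 7.33 CPM and KARPAS422 with 7.76 CPM, all 3 of the GCB type. All 9 MCL lines lay between 40.8 CPM in UPN1 and 164 CPM in MINO, and the spread of NOTCH1 within MCL was an SD of 0.70 log2 units, against 1.61 within GCB. ABC lines ran from 20.1 CPM in TMD8 to 79.7 CPM in HBL1.

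NOTCH2, at chromosome 1, 119911553 to 120069626 on the minus strand, was the member that varied least, with an SD of 0.76 log2 units over the 36 lines. Levels ran from 35.6 CPM in OCILY8 over a median of 161 CPM to 370 CPM in HC_1, 346 CPM in MEC1 and 335 CPM in U2932, and 28 lines lay above 100 CPM. The type medians were 130 CPM in MCL, 215 CPM in ABC, 162 CPM in MZL/HCL and 144 CPM in GCB lines. Near-identical partial copies of this gene (the NOTCH2NL genes) may share its reads. Its log2 CPM went with the log2 TMM factor of the library (Pearson r = 0.60 over 36 lines), as did that of DLL4 (r = 0.55) and HEY1 (r = 0.54). The factor comes from the same library and enters the scaling of the CPM, so the level and the factor are not independent. The part of library composition in these 3 levels was not tested.

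NOTCH4, a receptor known mainly from endothelium, at chromosome 6, 32194843 to 32224067 on the minus strand, was low in nearly all lines. It was under 10 CPM in 32 lines and not above the highest control probe of the library in 11. SP49 had 29.8 CPM, MEC1 26.2, SUDHL2 11.8 and TMD8 11.6 CPM, and these 4 were the lines at 10 CPM or more. RCK8, the line with the most NOTCH1, had 0 NOTCH4 counts, as did SSK41. The summed level of the 7 endothelial and stromal markers measured, of 8 listed, ran from 28.1 CPM in OCILY8 to 1157 CPM in HBL1. TEK, an endothelial receptor, had a median of 0.121 CPM, and KDR, another, of 1.49 CPM.

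**Figure D1:**
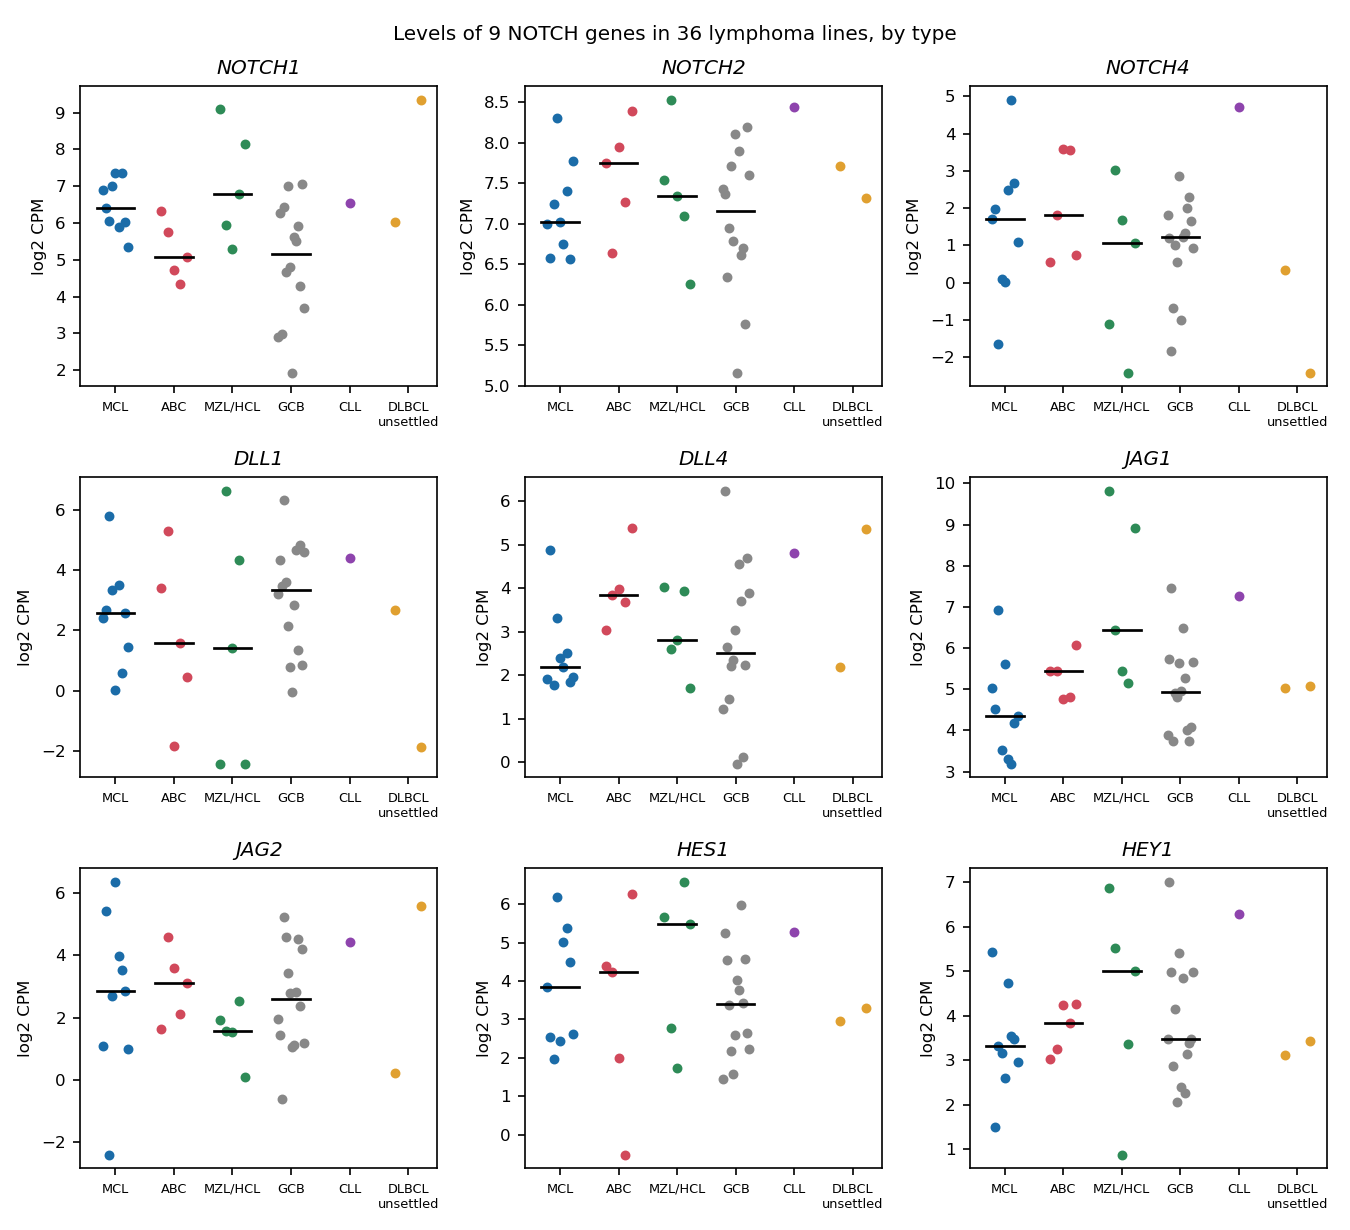
Level of each of the 9 genes in each line, in log2 CPM (prior count of 2) on the vertical axis, by lymphoma type on the horizontal axis. Each point is 1 line and each bar the median of a type with 5 or more lines; JAG1 reaches 905 and 480 CPM in 2 MZL/HCL lines, and the types overlap for every gene.

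DLL1, a Delta-like ligand encoded at chromosome 6, 170282206 to 170306565 on the minus strand, ranged from 0 counts to 98.5 CPM. HC_1 had 98.5 CPM, OCILY1 79.9 and JVM2 54.6, against a median of 6.19 CPM. HAIR_M and VL51 had 0 counts, and RCK8 and SUDHL2 had 1 count each. The 3 lines with the most NOTCH1 (RCK8, HAIR_M and VL51) were thus among the 4 lines with 0 or 1 counts of DLL1. None of these 4 lines was above its highest control probe, nor were OCILY7, TOLEDO and U2932. The log2 SD of 2.37 of DLL1 over the 36 lines depends on the prior count of 2 added to such counts. Over all 36 lines, NOTCH1 and DLL1 had a Spearman rho of -0.23. OCILY8, the line with the least NOTCH1, was also low in DLL1, with 5 counts.

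DLL4, the Delta-like ligand known from vessel growth, at chromosome 15, 40929333 to 40939073 on the plus strand, was highest in DOHH2 with 75.8 CPM, U2932 with 42.0 and RCK8 with 41.0 CPM. The median line had 6.48 CPM and OCILY8 the least, 0.790 CPM. Among ABC lines 4 of 5 were at 10 CPM or more, with a median of 14.2 CPM, while the GCB median was 5.52 CPM. The ranges overlapped, from 8.09 to 42.0 CPM in ABC and from 0.790 to 75.8 CPM in GCB lines.

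JAG1, a Jagged ligand at chromosome 20, 10637684 to 10673999 on the minus strand, stood out in a pair of MZL/HCL lines. HAIR_M had 905 CPM (884 to 928) and VL51 480 CPM (464 to 497). KARPAS422, a GCB line, followed with 177 CPM and MEC1 with 153 CPM, and the median line had 33.2 CPM. The other MZL/HCL lines, HC_1 with 87.1 CPM, KARPAS1718 with 43.3 and SSK41 with 35.4, lay within the range of the GCB lines. The lowest levels were in MCL: SP49 had 8.97 CPM, REC1 9.73 and MAVER1 11.4 CPM.

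JAG2, the other Jagged ligand, at chromosome 14, 105140981 to 105168824 on the minus strand, peaked in other lines. MINO had 82.4 CPM (77.1 to 88.0), RCK8 48.1 and JEKO1 43.1 CPM, against a median of 5.94 CPM. JVM2, also an MCL line, had 0 counts. All 5 MZL/HCL lines lay between 0.879 and 5.57 CPM. Over the 36 lines, JAG1 and JAG2 ran in opposite directions more than any other pair of members, with a Spearman rho of -0.41.

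HES1, a transcriptional repressor and NOTCH target, at chromosome 3, 194136145 to 194138732 on the plus strand, was highest in SSK41 with 95.9 CPM, U2932 with 76.2 and MAVER1 with 72.5 CPM. TMD8 had the least, 0.509 CPM from 7 counts, and the median was 12.0 CPM. HAIR_M had 50.3 CPM and VL51 44.8, while RCK8, with the most NOTCH1, had 9.67 CPM. Each type held lines on both sides of 10 CPM. The counts under 10 CPM were 4 of 9 MCL, 2 of 5 ABC, 2 of 5 MZL/HCL and 6 of 14 GCB lines.

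HEY1, a related repressor and target, at chromosome 8, 79764010 to 79767863 on the minus strand, reached 129 CPM in DOHH2, 117 in HAIR_M and 77.5 in MEC1, against a median of 10.9 CPM. KARPAS1718 had the least, 1.64 CPM. MZL/HCL lines ran from 1.64 to 117 CPM with a median of 32.1 CPM, and GCB lines from 3.99 to 129 CPM with a median of 10.9 CPM. The top lines of HES1 and HEY1 were different, and the Spearman rho of this pair was 0.25 over 36 lines.

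**Figure D2:**
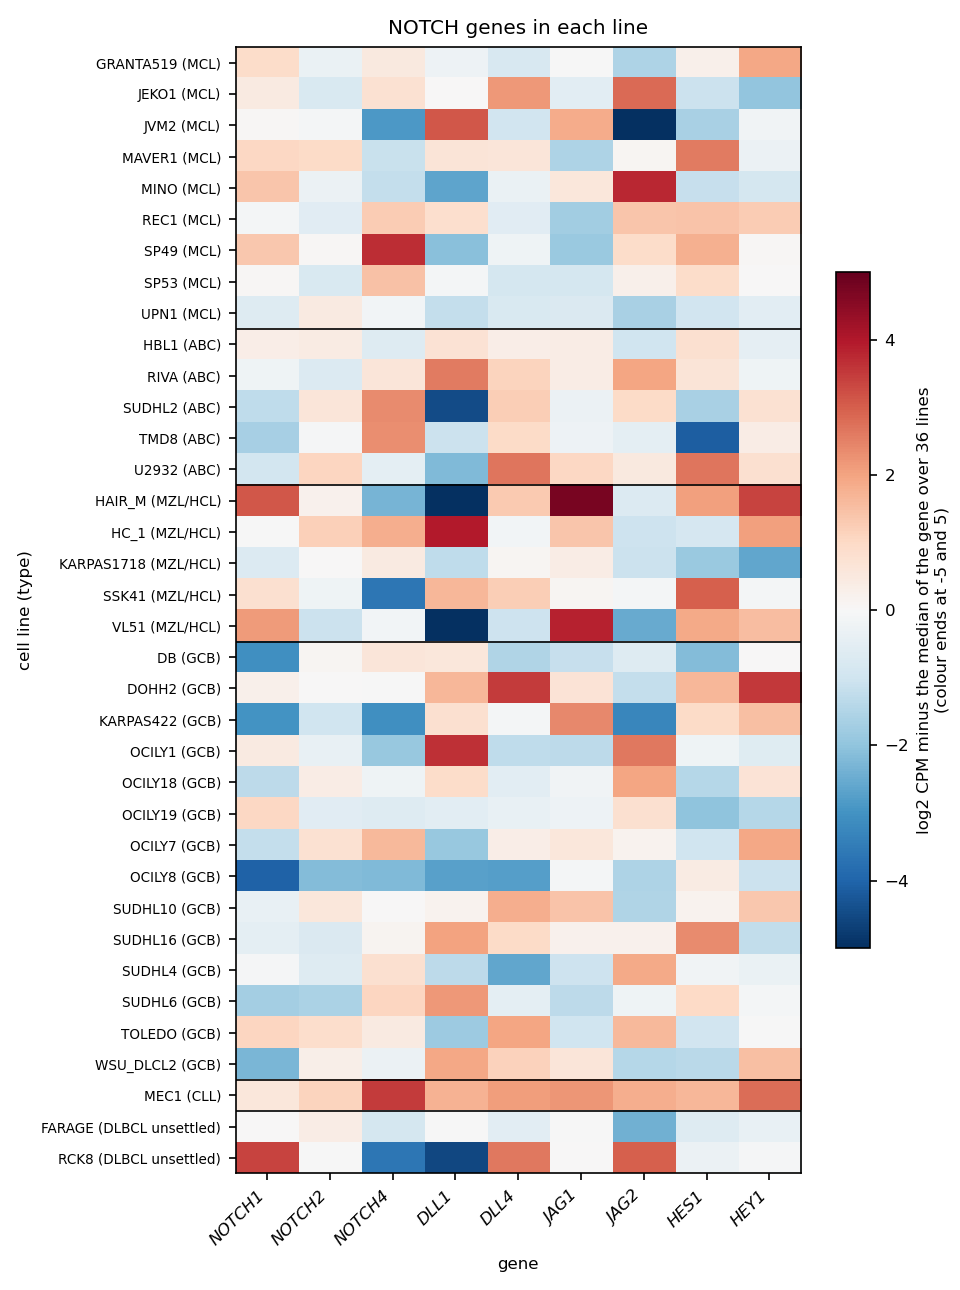
Log2 CPM of each gene (columns) in each line (rows, with the type in brackets) minus the median of that gene over the 36 lines; red is above and blue below that median, and black lines part the types. HAIR_M and VL51 are red for NOTCH1, JAG1, HES1 and HEY1 and blue for DLL1.

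Read by line, HAIR_M was among the 3 highest for NOTCH1, JAG1 and HEY1, and VL51 for NOTCH1 and JAG1. RCK8 was among the 3 highest for NOTCH1, DLL4 and JAG2, U2932 for NOTCH2, DLL4 and HES1, and MEC1 for NOTCH2, NOTCH4 and HEY1. DOHH2 was among them for DLL4 and HEY1. OCILY8 was the lowest line for NOTCH1, NOTCH2 and DLL4. VL51 was among the 3 lowest for NOTCH2, DLL1 and JAG2. NOTCH4 in MEC1, at 575 counts, is to be read against the 424 counts of its highest control probe. MEC1 also had the highest TMM factor (1.87) and OCILY8 the lowest (0.602), and NOTCH2, DLL4 and HEY1 went with that factor. Its part in these ranks was not tested.

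Types were compared by edgeR's quasi-likelihood test in 1 fit of the 33 lines of the 4 types, with Benjamini-Hochberg adjustment over 2406 genes and a threshold of 0.05. The p-values set a difference between types against the spread between lines. With 1 library per line, differences between lines and between cultures or libraries cannot be told apart in that spread. All 9 members passed the filter of 10 CPM in at least 4 of the 36 lines, but NOTCH4 did so only by counting MEC1, which has the raised floor and entered no test between types. A test for any difference between the types called 1 of 9 members, JAG1 (adjusted p = 0.00185), against 151 of 2406 genes (6.28%). NOTCH1 lay just outside the threshold (adjusted p = 0.0529) and was called without DOHH2, HBL1, HC_1, KARPAS1718, OCILY19 or TOLEDO (0.0273 to 0.0488). Without HAIR_M the adjusted p of JAG1 was 0.104.

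Between MZL/HCL and GCB lines, the ligand JAG1 and the receptor NOTCH1 were higher in MZL/HCL, and both calls rested on HAIR_M. JAG1 averaged 310 ± 381 CPM in MZL/HCL lines (SD, n = 5) and 44.3 ± 43.7 CPM in GCB lines (SD, n = 14). Its log2 fold change was 2.81 ± 0.61 (SE, edgeR adjusted p = 0.00653). NOTCH1 averaged 209 ± 214 CPM in MZL/HCL lines and 48.9 ± 43.3 CPM in GCB lines, a log2 fold change of 2.10 ± 0.58 (SE, edgeR adjusted p = 0.0341). The 2 calls of 9 members stand beside 79 called of 2406 genes (3.28%). The range of the groups overlapped for both genes, and all 5 MZL/HCL lines lay above the GCB median of each.

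Without HAIR_M the log2 fold change was 1.86 for JAG1 (adjusted p = 0.153) and 1.34 for NOTCH1 (0.471), and neither gene was called. The call of NOTCH1 was also lost without VL51 (1.97, adjusted p = 0.118), without OCILY18 (2.04, 0.0547), without SUDHL6 (2.03, 0.0520), with FARAGE and RCK8 counted as GCB (1.25, 0.590) and with only the 4 MCL lines that had CCND1 in the fit (2.10, 0.0528). limma on the authors' log2 values called neither (JAG1 2.12, adjusted p = 0.132; NOTCH1 2.12, 0.159).

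NOTCH2, the receptor known for marginal zone B cells, averaged 186 ± 110 CPM in MZL/HCL lines and 154 ± 80.6 CPM in GCB lines and was not called (edgeR adjusted p = 0.943). The targets HES1 and HEY1 had medians of 44.8 and 32.1 CPM in MZL/HCL lines, against 10.4 and 10.9 CPM in GCB lines. Neither was called (adjusted p = 0.535 for HES1 and 0.816 for HEY1), and each MZL/HCL range held lines below the GCB median.

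MCL lines differed from GCB lines in 0 of 9 members, against 105 of 2406 genes (4.36%). None of the 9 had an unadjusted p under 0.05, against 453 of 2406 genes, and DESeq2 and limma also called 0 members. NOTCH1 had the nearest to a call by its unadjusted p: it averaged 99.2 ± 46.0 CPM in MCL lines (SD, n = 9) and 48.9 ± 43.3 CPM in GCB lines (SD, n = 14), a log2 fold change of 1.02 ± 0.50 (SE, edgeR adjusted p = 0.266). That fold change of NOTCH1 ran from 0.18 to 1.61 over the other settings and from 0.90 to 1.23 with each line left out. It was called in none of them. All 9 MCL lines lay above the GCB median of 36.8 CPM, while 14 GCB lines spread from 3.64 to 132 CPM. Between ABC and GCB lines, 0 of 9 members were called, against 42 of 2406 genes (1.75%, or 1.41% higher in ABC). Again no member had an unadjusted p under 0.05, against 359 genes, and none was called by DESeq2 or limma. NOTCH4 was at 11.8 and 11.6 CPM in the ABC lines SUDHL2 and TMD8, and at most at 7.05 CPM in GCB lines.

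JAG1 was lower in MCL than in MZL/HCL lines, with 32.8 ± 35.8 CPM in MCL (SD, n = 9) and 310 ± 381 CPM in MZL/HCL (SD, n = 5). The log2 fold change was -3.24 ± 0.70 (SE, edgeR adjusted p = 0.0179), and it was 1 of 14 genes called of 2406 (0.582%), all lower in MCL. It was -2.30 without HAIR_M (adjusted p = 0.286), -3.03 without VL51 (0.0542), -2.53 with only the 4 MCL lines that had CCND1 (0.568) and -2.58 by limma (0.262). JAG2 ran the other way at 18.8 ± 27.2 CPM in MCL and 3.11 ± 1.70 CPM in MZL/HCL lines, and was not called (log2 fold change 2.59 ± 1.07, edgeR adjusted p = 0.471). HEY1 had a log2 fold change of -1.56 ± 0.75 and was not called (adjusted p = 0.611). The comparisons share lines and a single fit, so their values are not independent. The median log2 fold change of the 9 members was 0.58 in MZL/HCL over GCB, against -0.09 over all genes tested, and -0.83 in MCL over MZL/HCL, against -0.20. It was 0.026 in MCL over GCB, against -0.28, and -0.011 in ABC over GCB, against -0.12. The 0.58 is the value of DLL1, which was not called (edgeR adjusted p = 0.957). DLL1 had a lower median in MZL/HCL (2.47 CPM) than in GCB lines (10.0 CPM), with 98.5 CPM in HC_1. The 0.58 thus does not show a common shift of the members.

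REC1 and MINO, the lines known for NOTCH1 changes, had unlike levels of most members. NOTCH1 was at 59.4 CPM in REC1 and 164 CPM in MINO, against 40.8 to 163 CPM in the other 7 MCL lines with a median of 85.6 CPM. MINO had the highest NOTCH1 of the 9 MCL lines and REC1 the second lowest. The targets ran the opposite way: HES1 was at 32.2 CPM in REC1 and 5.20 CPM in MINO, against a median of 14.3 CPM in the other 7. HEY1 was at 26.5 CPM in REC1 and 5.85 CPM in MINO, against a median of 9.72 CPM in the others.

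The ligands of REC1 and MINO differed as well. JAG1 was at 9.73 CPM in REC1 and 49.1 CPM in MINO, and JAG2 at 15.7 CPM in REC1 and 82.4 CPM in MINO, the highest JAG2 of all 36 lines. DLL1 was at 11.2 CPM in REC1 and 0.835 CPM in MINO. For every member, at least 1 of the lines lay within the range of the other 7. Only JAG2 and NOTCH1 in MINO and DLL1 in MINO fell outside that range.

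**Figure D3:**
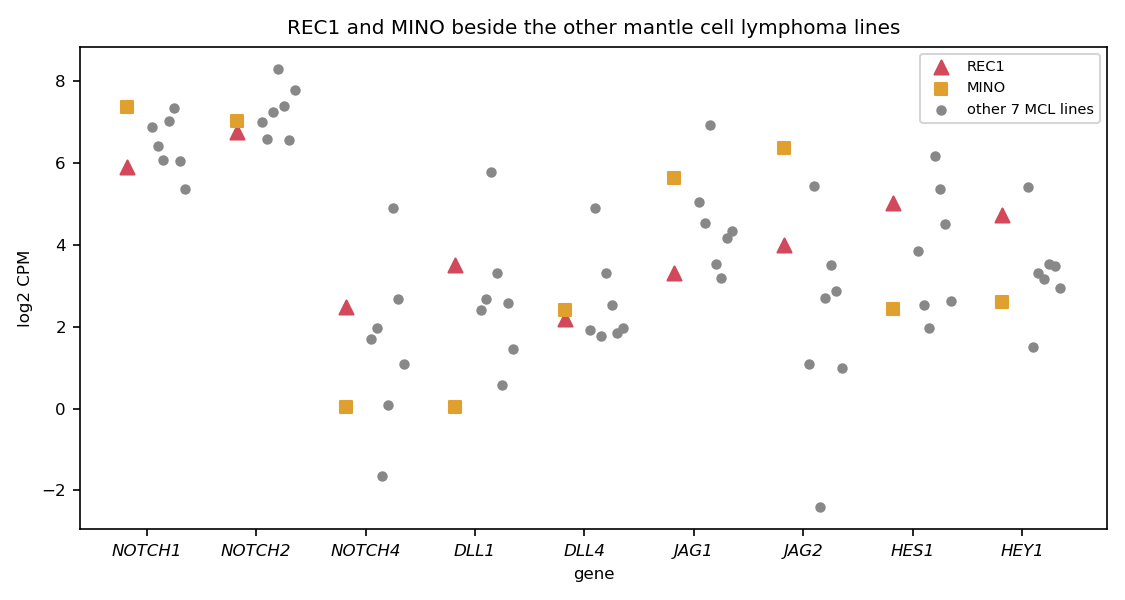
Log2 CPM (vertical axis, prior count of 2) of each gene (horizontal axis) in REC1 (triangle), MINO (square) and the other 7 MCL lines (grey points). MINO lies at the top of NOTCH1 and JAG2, and REC1 lies above MINO for HES1 and HEY1.

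The test of REC1 and MINO over the other MCL lines called 0 of 9 members and 0 of 2406 genes (0%) by edgeR, with 83 genes at an unadjusted p under 0.05. DESeq2 called 6 genes and limma 0, none of them a member. The log2 fold change was 0.23 ± 0.64 for NOTCH1 (SE, adjusted p = 0.994) and -0.34 ± 1.12 for HES1 (SE, adjusted p = 0.994). The sign of HES1 turned with library size as the only scaling (0.19), with the TMM factor in the fit (0.070), without MAVER1 (0.27) and without MINO (0.44), and that of NOTCH1 without MINO (-0.69). RNA level does not tell the activity of a receptor, and sequence changes were not measured. The library labelled REC1 was 1 of the 5 low in CCND1. It also had the highest summed level of the 3 T-cell markers measured of 6 listed, 511 CPM against a median of 70.1 CPM, of which CD3D gave 490 CPM, and their part in its values was not tested.

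Levels of the other members were then fitted on the level of NOTCH1 across the 36 lines, as the change in log2 level per log2 unit of NOTCH1. None of 8 members was called, against 76 of 2405 genes (3.16%, or 2.49% with a positive slope). At an unadjusted p under 0.05 were 2 members, against 357 genes, and DESeq2 called 1 member, JAG2. JAG1 had a slope of 0.40 ± 0.12 (SE, edgeR adjusted p = 0.0511) and JAG2 of 0.57 ± 0.20 (SE, adjusted p = 0.125). JAG1 was called with DESeq2's size factors (0.39, adjusted p = 0.0474), with library size alone (0.43, 0.0302) and without KARPAS422 (0.57, 0.00630). It was also called, with a slope of 0.40 to 0.42, without GRANTA519, MAVER1, OCILY1, OCILY19, RCK8, SP49, SUDHL4 or TOLEDO. Its slope was 0.18 without HAIR_M (adjusted p = 0.675). The Spearman rho of NOTCH1 and JAG1 over the 36 lines was 0.05, and HAIR_M and VL51 were the 2 highest lines of JAG1. HES1, the target, had a Spearman rho of 0.30 with NOTCH1 and was not called (adjusted p = 0.495).

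On the level of HES1, none of 8 members was called by edgeR, against 9 of 2405 genes (0.374%). At an unadjusted p under 0.05 were 2 members, against 151 genes. JAG1 had a slope of 0.50 ± 0.15 (SE, adjusted p = 0.153), which DESeq2 called (0.51, adjusted p = 0.0338), and which was 0.30 without HAIR_M (0.813). HEY1, the other target, had a slope of 0.35 ± 0.14 (SE, adjusted p = 0.533).

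**Figure D4:**
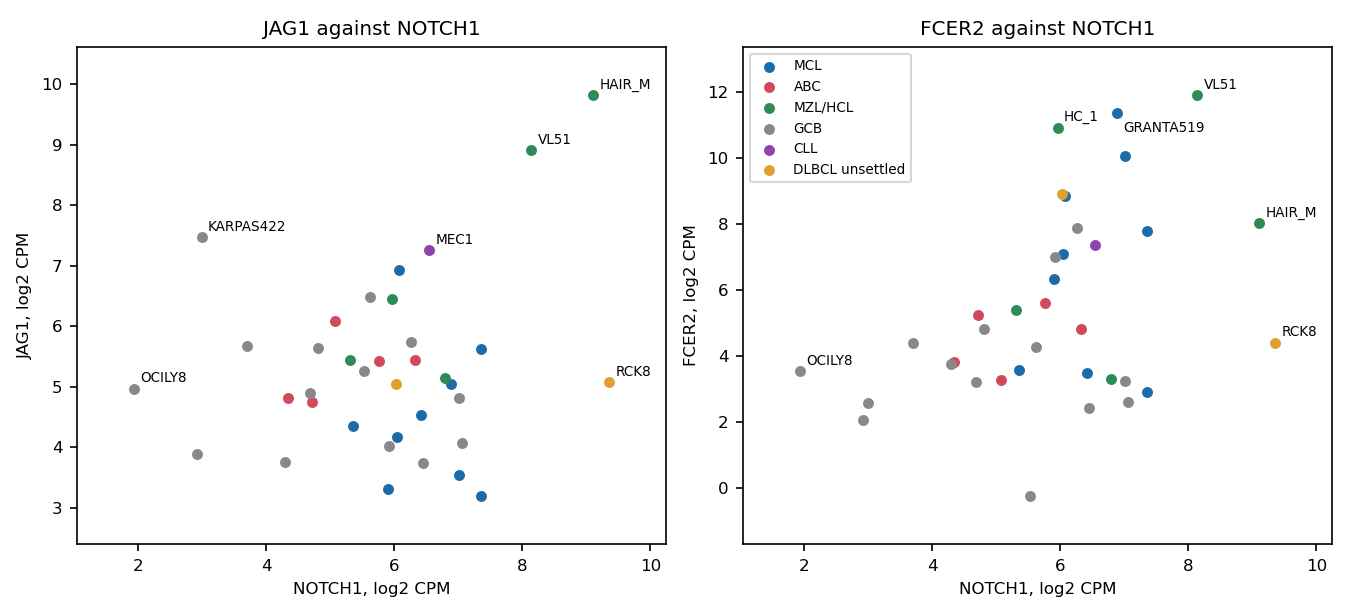
JAG1 (left) and FCER2 (right) on the vertical axis against NOTCH1 on the horizontal axis, all in log2 CPM (prior count of 2). Each point is 1 of the 36 lines, coloured by type; HAIR_M and VL51 are high for NOTCH1 and JAG1, while RCK8, highest for NOTCH1, is near the median of JAG1.

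Other genes of the pathway were taken from lists. FCER2, the IgE receptor CD23 and a known NOTCH target in B cells, was called in 4 of the 8 tests, the test for any difference (edgeR adjusted p = 0.00349) among them. It ran from 9.68 CPM in SSK41 to 3855 CPM in VL51 among MZL/HCL lines (median 262 CPM), from 7.33 CPM in MINO to 2629 CPM in GRANTA519 among MCL lines (median 135 CPM), and from 0.654 to 235 CPM among GCB lines (median 10.3 CPM). The log2 fold change was 5.11 ± 1.06 in MZL/HCL over GCB lines (SE, edgeR adjusted p = 0.00507) and 3.86 ± 0.95 in MCL over GCB lines (SE, adjusted p = 0.0162). The first was 4.25 by limma (adjusted p = 0.0947). The second was 2.82 without GRANTA519 (adjusted p = 0.0762), 3.22 by limma (0.0765) and 3.04 with FARAGE and RCK8 counted as GCB (0.0755). By limma the adjusted p for any difference was 0.0661. MINO, at 7.33 CPM, was the lowest MCL line for FCER2, and REC1 had 81.0 CPM.

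FCER2 also went with NOTCH1 across the 36 lines, with a slope of 1.37 ± 0.33 (SE, edgeR adjusted p = 0.0173). The slope was 1.28 without VL51 (adjusted p = 0.0944) and 0.73 by limma (0.210). RCK8, with the most NOTCH1, had 21.0 CPM of FCER2, below the median of 24.5 CPM. IL7R, the interleukin-7 receptor and a NOTCH target known from T-cell leukaemia, had a slope of -0.54 ± 0.13 on NOTCH1 (SE, adjusted p = 0.0198), which rested on OCILY8. That line had 2569 CPM of IL7R and the least NOTCH1, and the slope was -0.13 without it (adjusted p = 0.848), -0.32 with library size alone (0.181) and -0.36 by limma (0.486). COL1A1, a collagen gene of the stromal marker list, rose with NOTCH1 too (slope 1.20 ± 0.28, edgeR adjusted p = 0.0173), with 314 CPM in GRANTA519, 197 in MAVER1 and 191 in VL51. It was the 1 call of 5 endothelial and stromal markers tested, against 2.49% of all genes called with a positive slope. The median slope of the 5 was 0.06, and COL3A1, another collagen gene, had a slope of 0.04 and was not called.

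LFNG, the glycosyltransferase that modifies NOTCH and shifts its response from Jagged to Delta-like ligands, was higher in MCL lines. The MCL median was 166 CPM, with 417 CPM in SP53 and 2.46 CPM in JVM2, and the GCB median was 10.9 CPM, with at most 85.0 CPM in TOLEDO. The log2 fold change was 2.79 ± 0.82 (SE, edgeR adjusted p = 0.0454). It ran from 2.47 to 3.11 with each line left out in turn, and the adjusted p was above 0.05 in 16 of those 33 fits. With only the 4 MCL lines that had CCND1 it was 1.99 (adjusted p = 0.351), by limma 2.94 (0.0800) and with FARAGE and RCK8 counted as GCB 2.47 (0.0907). CCND3, a D-type cyclin and NOTCH target in T-cell leukaemia, was lower in MCL, from 76.9 to 258 CPM, than in GCB lines, from 99.6 to 2252 CPM. Its log2 fold change was -2.18 ± 0.45 (SE, adjusted p = 0.00329), and -2.04 with the 4 MCL lines that had CCND1 (0.117).

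Counted by list, further NOTCH target genes (10 of 17 measured, 9 tested) had 1 higher and 1 lower call in MCL over GCB, 1 higher call in MZL/HCL over GCB and 0 in ABC over GCB lines. Over all genes tested, 2.37% were higher and 2% lower in MCL, and 3.16% were higher in MZL/HCL. On NOTCH1 they had 1 positive and 1 negative slope called, against 2.49% positive and 0.665% negative over all genes. For any difference 2 genes were called, FCER2 and CCND3, against 6.28% of all genes. The call of CCND3 for any difference was lost by limma (adjusted p = 0.0757) and with only the 4 MCL lines that had CCND1 (0.180). Other ligands and glycosyltransferases (4 of 11 measured, 3 tested) had 1 call, LFNG in MCL, against the 2.37% of all genes. The proteases that cut NOTCH (2 of 8 measured), the nuclear complex and its cofactors (10 of 17 measured) and the regulators of NOTCH turnover (8 of 13 measured) had 0 calls in each of the 8 tests by edgeR. At most 3 genes of a list had an unadjusted p under 0.05 in any test, against 83 to 477 genes of the panel by test. The myeloid marker ITGAM was called in MCL over GCB lines (log2 fold change 3.35 ± 0.84, adjusted p = 0.0174), with 110 CPM in GRANTA519, 51.8 in MAVER1 and 35.3 in JVM2. Without GRANTA519 it was 2.51 and not called (adjusted p = 0.0781). ITGAM was the 1 call of 5 myeloid markers tested, against the 2.37% of all genes higher in MCL. Of the others, CSF1R (-1.73), CD163 (-0.79) and CD68 (-0.43) had negative log2 fold changes and CD14 (0.31) a positive one, none of them called. The summed level of the 6 myeloid markers ran from 145 to 369 CPM in MCL lines and from 92.7 to 941 CPM in GCB lines, and their part in the other calls was not tested.

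Pairs of members showed little common order. Over the 36 pairs of the 9 genes, the median Spearman rho across the 36 lines was 0.05, from -0.41 for JAG1 and JAG2 to 0.43 for JAG1 and HEY1. NOTCH2 and DLL4 also had 0.43, and both levels went with the TMM factor. After the TMM factor was regressed out, the Pearson r was 0.22 for NOTCH2 and DLL4 and 0.51 for JAG1 and HEY1. These are descriptions across lines, all read in the same assay, and carry no test.

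**Figure D5:**
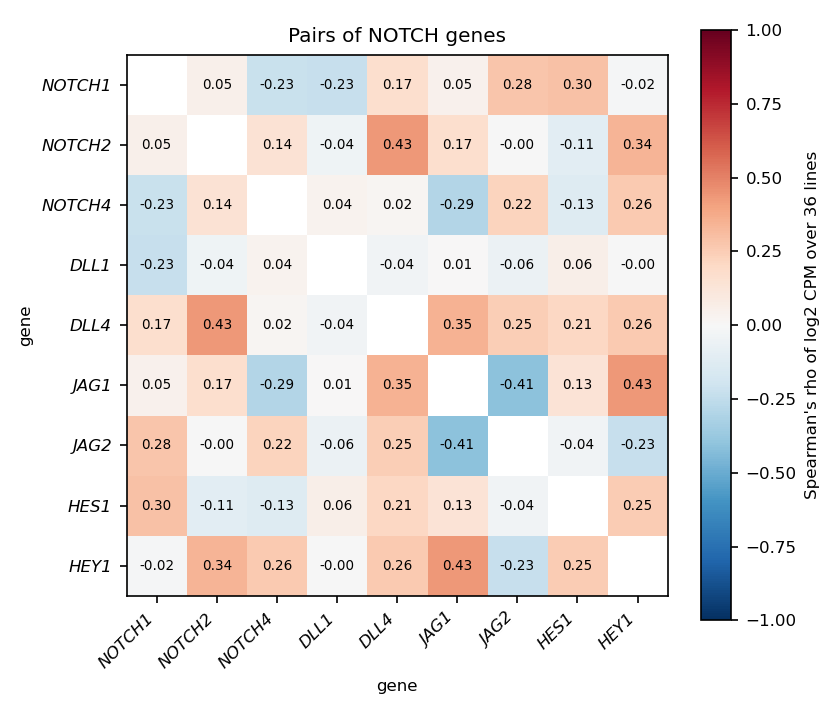
Spearman's rho of log2 CPM over 36 lines for each pair of the 9 genes, which stand on both axes; red is positive and blue negative, on a scale from -1 to 1. JAG1 with HEY1 and NOTCH2 with DLL4 have 0.43 and JAG1 with JAG2 has -0.41.

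The genes whose pattern over the 36 lines was most like that of each member were ranked by Spearman rho over the panel outside the lists. For NOTCH1 the nearest was PIM3, a serine/threonine kinase, with a rho of 0.74, followed by ALDH4A1 and CDKN1A. For NOTCH2 they were IL19 (0.78), GALNT5 and SMC1B, and for NOTCH4 LRRK2 (0.53), CNTF and SOX3. The nearest to DLL1 was PRKAR2A, a regulatory subunit of protein kinase A (0.65), then GSTM1 and TNFRSF12A. DLL4 was nearest to LEFTY1 (0.68), DNAJB8 and TSHR. JAG1 was nearest to FBN1, the matrix protein fibrillin (0.66), then LAMB3 and HNF4A, and JAG2 to ABCA2, a lipid transporter (0.76), then CAMKK1 and WNT3. HES1 had the least close neighbours but for NOTCH4, with MAGEE1 (0.55), FBP1 and CCNB3. HEY1 was nearest to SPARC, a matrix protein (0.76), then LRP12 and SOX9. For NOTCH2, DLL4 and HEY1, the rho with the nearest gene was 0.64, 0.56 and 0.65 once the TMM factor was regressed out.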

How the data were processed

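RNA of 36 lymphoma cell lines, 1 library each, was measured by targeted RNA-Seq on an Illumina NextSeq, per the labels' protocols. The authors deposited a table of whole-number counts per gene and a table of log2 values. The submitters' processing notes name hg38. For the aligner, the counting method and the use of strand, no statement is given in the sources used. Each deposited log2 value matched, to within 0.00529, the log2 of 1 plus a scaled count, with a single scaling factor for each library. The 10 control probes, at most 0.0265% of counts, name no gene and entered neither library totals nor tests.

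Counts were scaled in edgeR 4.0.16 (R 4.3.3) by TMM factors, and log2 CPM used a prior count of 2. A gene was tested where 4 or more lines reached 10 CPM (2406 of 2549 genes). Tests were edgeR quasi-likelihood F tests, with Benjamini-Hochberg adjustment over all genes tested and a threshold of 0.05, and the SE is the log2 fold change divided by the square root of F. A positive log2 fold change means a higher level in the first group named. Intervals are exact Poisson at 95% and cover counting error only. The scripts were tested on simulated data. Alternatives were DESeq2 1.42.0 size factors, library size alone, no filter, a filter of 50 CPM, DESeq2's own test, limma 3.58.1 on the authors' log2 values, the log2 TMM factor as a covariate, FARAGE and RCK8 counted as GCB, no JVM2, no MEC1, rank in place of level, all lines in 1 fit, a prior count of 0.5 and each line left out. Chosen after seeing the data were the slopes without each line and the MCL lines with CCND1 at 100 CPM or more.

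Types come from the documented origin of the named lines, not from the labels. The members and lists were chosen with earlier results of these data known. Genes named are all members, list genes called in a test and, per member, the 3 genes outside the lists with the highest Spearman rho. Gene positions are from GENCODE release 29, and promoters from RefSeq, in which 7 of the 9 genes matched.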

Additional observations from a re-analysis of the deposited data

Results flagged for a closer look

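Among the 9 MCL lines, JEKO1 had 29.5 CPM of DLL4, set apart from the other 8, of which MAVER1 was next with 9.81 CPM and JVM2 lowest with 3.24 CPM. It was flagged because its gap to the nearest line in log2 CPM, divided by the range of the group in log2 CPM, was 0.504, above Dixon's critical value for 9 samples. Of 27 groups of lines examined, this was the 1 flagged, and chance flags about 1 in 20.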

How the results depend on the processing

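No paired analysis was possible because the replicate numbers were given in accession order and pair no lines. Of 1033 recomputed fold changes, slopes and tests for any difference, 956 kept their direction and their side of the threshold, 52 lost a call, 20 gained one and 5 changed sign. All 27 recomputed median levels moved by less than the spread between lines. In the tests for any difference, 2 members were called by DESeq2 and 0 by limma, against 1. In MZL/HCL over GCB, the count was 0 by limma, 1 with FARAGE and RCK8 counted as GCB and 1 with only the 4 MCL lines with CCND1, against 2. In MCL over MZL/HCL it was 0 by limma and 0 with those 4 MCL lines, against 1. On HES1 it was 1 by DESeq2, against 0. On NOTCH1 it was 1 with DESeq2's size factors, 1 with library size alone and 1 by DESeq2, against 0. With each line left out, members called ranged from 0 to 2 for any difference, 0 to 2 for MZL/HCL over GCB, 0 to 1 for MCL over MZL/HCL, 0 to 1 on NOTCH1 and 0 to 0 elsewhere. In REC1 and MINO, HES1 changed sign with library size alone (0.19) and the TMM covariate (0.070) and ran from -2.18 to 0.44 with a line left out, and NOTCH1 from -0.69 to 0.78. The cause of these changes was not tested.

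Genes called over the panel varied by tool. DESeq2 called 274 for any difference, 213 in MCL over GCB, 124 in ABC over GCB, 34 in MCL over MZL/HCL, 6 in REC1 and MINO, 38 on HES1 and 161 on NOTCH1, against 151, 105, 42, 14, 0, 9 and 76 by edgeR. limma called 51, 67, 5, 1, 0, 1 and 22 in the same tests, and 7 in MZL/HCL over GCB, against 79. MCL over GCB had 182 with the TMM covariate, and 62 with FARAGE and RCK8 counted as GCB, which also gave 26 in ABC over GCB and 37 in MZL/HCL over GCB. MCL over MZL/HCL had 5 with library size alone, 9 with the 50 CPM filter and 1 with the 4 MCL lines with CCND1. The HES1 slope had 2 with library size alone, 5 with the 50 CPM filter, 2 with the TMM covariate and 14 without the 2 lines farthest from the median. MCL over GCB had 67 without JVM2, ABC over GCB 24 without HBL1, MZL/HCL over GCB 42 without HAIR_M and 44 without VL51, and the NOTCH1 slope 34 without DB, 47 without HAIR_M and 42 without VL51. MCL over MZL/HCL ranged from 7 without SP49 to 27 without JVM2 (8 without MINO, SP53 or VL51, 9 without UPN1), and the HES1 slope from 4 to 12, with 4 without U2932. Library size alone moved the median log2 fold change of all genes in ABC over GCB by 0.26. NOTCH4, DLL1 and JAG2 were not above the highest control probe in 11, 7 and 3 lines, and the parts of depth and of control background in this were not tested.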

Other observations

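Some further NOTCH genes stood high in lines already named for the members. These were chosen after their values were seen, and no test was made. VL51 had the highest level of DTX4, a regulator of NOTCH turnover (812 CPM, against a median of 103 CPM), and of RBPJ, the DNA-binding partner of NOTCH (1315 CPM, against a median of 463 CPM). HAIR_M had the highest level of HEYL, a relative of HEY1 (180 CPM, against a median of 12.3 CPM). OCILY8, lowest for NOTCH1 and NOTCH2, had the highest level of DTX1, a known NOTCH target in B cells (5523 CPM, against a median of 1460 CPM). HEY2, another relative of HEY1, was highest in TOLEDO (1172 CPM) and KARPAS1718 (546 CPM), against a median of 25.1 CPM.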
